A study of Mus musculus with 6 samples.

Results

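The phospholipase A2 genes described here were 8 of the 19790 genes of the deposited count table: Pla2g7, Pla2g15, Pla2g4a, Pla2g4c, Pla2g6, Pla2g2d, Pla2g5 and Pla2g12a. They were picked out by name, as the rows whose NCBI gene identifier carries one of these symbols. The list of symbols was chosen with earlier results of these data known. It leaves out other family genes of the table, such as Pla2g2e and Pla2g12b.

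The tissue was gonadal white adipose tissue (gWAT), the abdominal fat around the epididymis, and its RNA was sequenced from wild-type C57BL/6 mice on a normal chow diet (NCD, 3 mice) or a high-fat diet (HFD, 3 mice) for 8 weeks. The labels give 6 weeks as the age when feeding began, whereas the study's methods describe a later start for its obesity model and male mice. The design text calls the samples of each diet biological replicates. The labels name no transgene or deletion, and diet is the only difference between the groups that they give.

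Phospholipases A2 cut the fatty acid from the middle carbon of a glycerophospholipid and leave a lysophospholipid. When the substrate is a plasmalogen, a phospholipid with a vinyl ether bond, the product is a lysoplasmalogen, which lysoplasmalogenases such as TMEM86A break down further. The family includes secreted enzymes, the calcium-responsive cytosolic enzyme that releases arachidonic acid for eicosanoid synthesis, calcium-independent enzymes that remodel membranes, a lysosomal enzyme, and a plasma enzyme that hydrolyses platelet-activating factor (PAF) and oxidised phospholipids. In fat tissue both adipocytes and immune cells express family members.

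Libraries held between 49575113 and 66360046 counts. NCD replicate 1 stood apart: 58.6% of its counts fell on 11 secretory genes of the seminal vesicle, a gland adjoining this fat pad, against 11.2% in NCD replicate 2, 2.3% in NCD replicate 3 and 6, 8 and 2 counts in all in the HFD mice. Every NCD library thus held more of this RNA than any HFD library, and its part in the diet differences cannot be told apart from the diet beyond leaving out the most affected mouse. Values below are CPM (counts relative to the library total) after TMM scaling (edgeR's trimmed mean of M-values, "scaled CPM"), whose factor was 0.496 for NCD replicate 1 and 1.02 to 1.27 for the other mice. The adipocyte markers Adipoq and Plin1 were present in all libraries, at 532 to 2695 and 287 to 1289 scaled CPM, and were lowest in NCD replicate 1. Values of 3 mice are listed in the order of replicates 1, 2 and 3.

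All 8 genes were abundant enough to be tested. Pla2g7 was the single member past an adjusted p of 0.05 in the 6 mice, where 7.47% of all 15241 genes tested were called and 5.58% were called higher on HFD (edgeR's quasi-likelihood test, Benjamini-Hochberg adjustment over all genes). At an unadjusted p under 0.05, 6 of the 8 passed, beside 4524 of the 15241 genes. Without NCD replicate 1, the same test called 6 of the 8 members, where 20.9% of 15510 genes were called. Pla2g7, Pla2g15 and Pla2g4a were then higher on HFD, beside 10.7% of all genes, and Pla2g2d, Pla2g6 and Pla2g12a lower, beside 10.1%. The diets did not overlap for 4 of the 8 members in the 6 mice, against 39.2% of all genes, with 2 higher on HFD (20.5% of all genes) and 2 lower (18.7%). With NCD replicate 1 left out they did not overlap for 6 of 8, against 57.1%, with 3 higher (27.9%) and 3 lower (29.1%). The median log2 fold change (HFD over NCD) of the 8 members was 0.59, or 0.69 without NCD replicate 1, beside -0.08 and 0.02 over all genes tested.

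**Figure D1:**
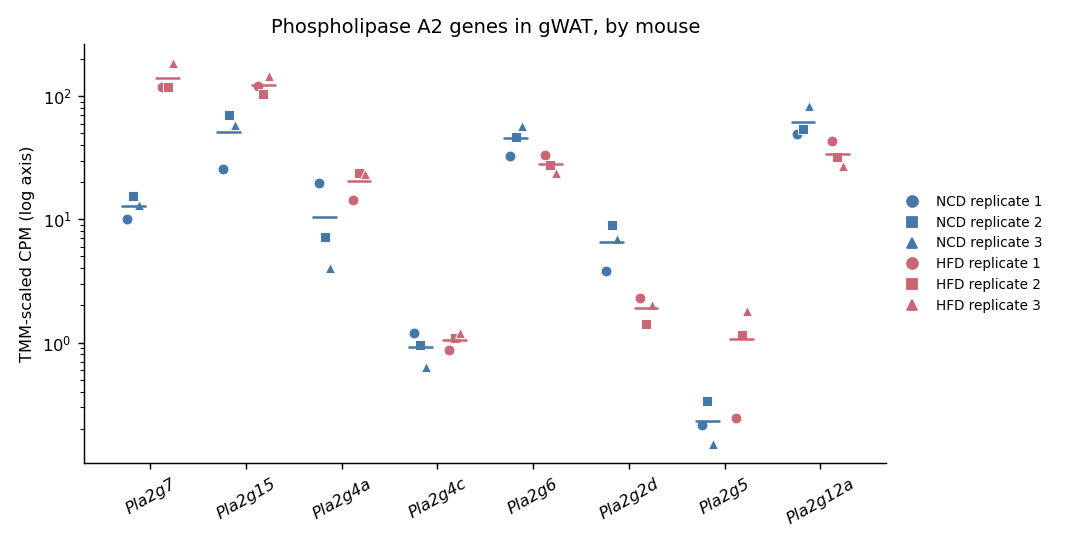
Scaled CPM (vertical axis, log scale) of the 8 phospholipase A2 genes in each mouse, with NCD in blue, HFD in red, 1 symbol per replicate and a bar at the mean of each diet. Pla2g7 lies between 10.1 and 15.6 on NCD and between 118 and 186 on HFD, while Pla2g4c lies near 1 in most mice of both diets.

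Pla2g7 encodes the plasma PAF acetylhydrolase, also called lipoprotein-associated phospholipase A2, which inactivates PAF and is made largely by macrophages. It was measured at 10.1, 15.6 and 13.1 scaled CPM on NCD and at 118, 118 and 186 on HFD. Every HFD mouse lay far above every NCD mouse. The gene rose 10.9-fold, a log2 fold change of 3.44 ± 0.286 (SE; edgeR's quasi-likelihood test, adjusted p = 0.0192), and 9.89-fold without NCD replicate 1 (log2 fold change 3.31 ± 0.286, adjusted p = 0.00544). Leaving out NCD replicate 2, NCD replicate 3 or HFD replicate 1, 2 or 3 kept log2 fold changes of 3.59, 3.47, 3.56, 3.57 and 3.20, but the adjusted p became 0.0578, 0.0706, 0.0548, 0.0598 and 0.0971 in edgeR's test, past the threshold in none of these 5 fits. Of its 2905 exon bases in GENCODE, 319 are shared with the antisense gene 1700071M16Rik, and no source used here says whether reads were counted by strand.

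**Figure D2:**
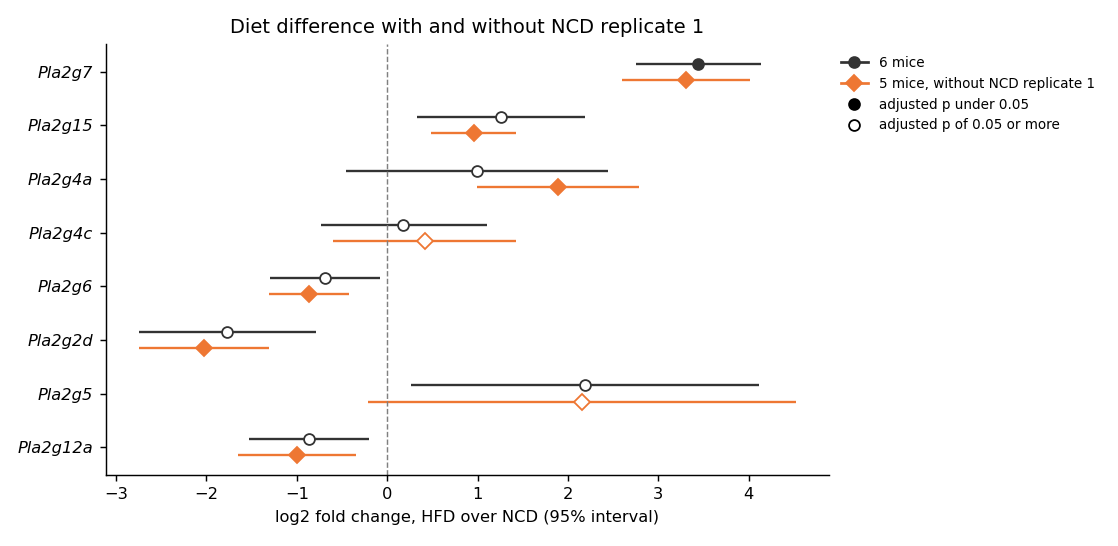
Log2 fold change between the diets (horizontal axis, HFD over NCD, with 95% intervals) of each phospholipase A2 gene, in black for 6 mice and in orange for 5 mice without NCD replicate 1, with filled symbols for an adjusted p under 0.05. Pla2g7 is filled in both fits, and Pla2g15, Pla2g4a, Pla2g6, Pla2g2d and Pla2g12a are filled in the 5 mice alone.

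The order of the 8 genes differed between the diets. Levels of different genes were compared per kilobase of exon (FPKM), as the percentage of the summed FPKM of the 8 genes in the same mouse, a quantity that does not depend on scaling between mice. Other genes with phospholipase A2 activity lie outside this sum and these ranks. Prdx6, described below, had 138, 90 and 96.5 FPKM on NCD, above Pla2g12a at 14.6, 32.8 and 53.2. Pla2g7 made up 7.81, 8.72 and 6.4% of the sum on NCD and 39.5, 43 and 50.8% on HFD. It ranked 4 or 5 among the 8 in the NCD mice and 1 in all HFD mice. Pla2g12a, a secreted enzyme of an unusual group with low catalytic activity, ranked 1 in all NCD mice, with 48.1, 37.6 and 50.7%, and 3 in all HFD mice, with 18, 14.7 and 9.2%. Pla2g15 ranked 2 in every mouse. Its share was 15.4, 30.6 and 21.9% on NCD and 31.6, 29.3 and 30.7% on HFD, so that the diets overlapped. Pla2g6 took 14.7, 15.2 and 16.3% on NCD and 6.54, 5.91 and 3.77% on HFD, without overlap. A share also falls when another of the 8 genes rises, so a lower share is not by itself a lower level. The FPKM of Pla2g6, not scaled between mice, was 4.48, 13.2 and 17.1 on NCD and 10.8, 9.71 and 8.34 on HFD, which overlapped. That of Pla2g12a was 29.7, 24.2 and 20.4 on HFD and overlapped with NCD too. Pla2g4a took 1.34 to 10.6%, the most in NCD replicate 1, and Pla2g2d 0.483 to 4.67%, while Pla2g4c and Pla2g5 stayed at or below 0.54%. The scaled CPM of the 8 genes summed to 143, 204 and 224 on NCD and to 334, 309 and 410 on HFD.

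**Figure D3:**
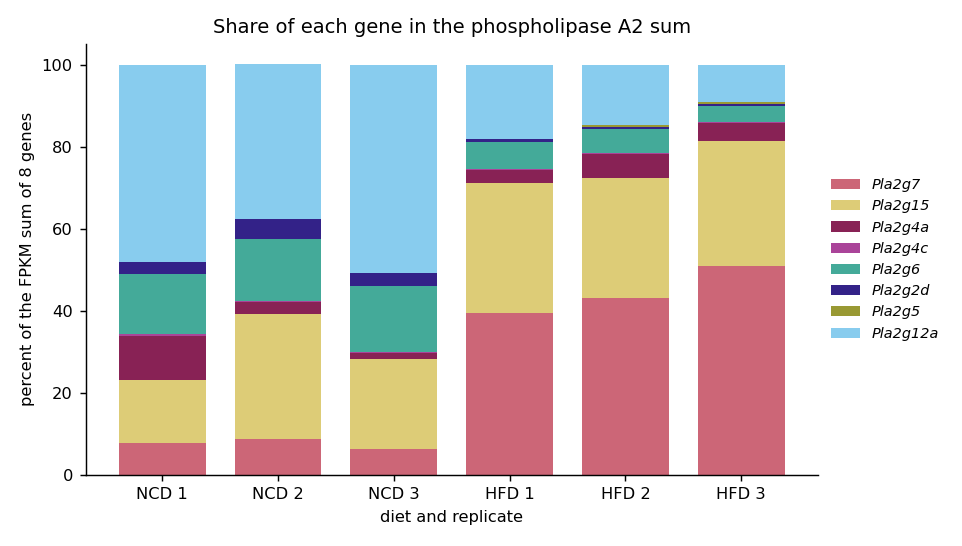
Percentage of the summed FPKM of the 8 phospholipase A2 genes (vertical axis) taken by each gene in each mouse (horizontal axis). Pla2g12a is the largest block in the 3 NCD mice, at 37.6 to 50.7%, and Pla2g7 in the 3 HFD mice, at 39.5 to 50.8%.

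Pla2g15 encodes the lysosomal phospholipase A2, which breaks down phospholipids at acid pH and is abundant in some macrophages. Its level was 25.7, 70.5 and 58 scaled CPM on NCD and 122, 104 and 145 on HFD. All HFD mice were above all NCD mice, and NCD replicate 1 was the lowest. In the 6 mice the log2 fold change was 1.26 ± 0.383 (edgeR's quasi-likelihood test, adjusted p = 0.0927). The difference passed the test without that mouse, at a smaller size of 1.94-fold (log2 fold change 0.96 ± 0.19, adjusted p = 0.0238 in the same test).

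The bases just upstream of the annotated start of Pla2g15 are shown because the gene rose on HFD without NCD replicate 1. They come from the RefSeq promoter table for GRCm38.p6, the build the labels name, and are written 5′ to 3′ on the plus strand, which carries the gene. The stretch is chr8:106150104-106150353, ending at the base before the start. The window before the tabulated start of Pla2g7 (chr17:43568201-43568450) is not printed, since all its 250 bases lie within the annotated span of the gene, which begins at 43567994, and 182 of them in an annotated exon.
Pla2g15: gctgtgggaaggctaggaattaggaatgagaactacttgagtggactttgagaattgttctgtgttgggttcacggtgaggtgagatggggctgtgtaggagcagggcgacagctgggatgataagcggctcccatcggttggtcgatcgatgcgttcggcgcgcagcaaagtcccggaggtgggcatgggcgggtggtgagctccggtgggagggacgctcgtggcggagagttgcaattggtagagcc
Both strands of the full 250 bases before each start were searched for 4 motifs: GAGGAA, a core of sites for the macrophage factor PU.1, TGANTCA of AP-1, the E-box CACGTG bound among others by lysosomal gene regulators, and TATAAA. Neither window, of Pla2g7 or of Pla2g15, had any of them. Over 32851 mouse promoters of the same length, 23.3% held GAGGAA, 6.75% TGANTCA, 6.02% CACGTG and 12.4% TATAAA. Over the 11 annotated starts of the 8 members, 4 windows in 4 genes held a match, which was GAGGAA on either strand for Pla2g5, Pla2g12a and Pla2g4c and TATAAA for Pla2g4a. The matching windows of Pla2g12a, Pla2g4c and Pla2g4a lie with all 250 bases within the annotated span of the gene.

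Pla2g4a encodes the cytosolic phospholipase A2 alpha, which moves to membranes when calcium rises and releases arachidonic acid. It was at 19.9, 7.24 and 4 scaled CPM on NCD and at 14.4, 23.9 and 23.4 on HFD. NCD replicate 1 lay within the HFD range and the other NCD mice below it. In NCD replicates 1, 2 and 3 the level of Pla2g4a had the same order as the share of seminal vesicle counts and as the summed level of 12 epithelial markers, which was 2101, 223 and 54.9 scaled CPM, against 35.8 to 145 on HFD. The part of this RNA in the level of Pla2g4a was not tested. With all 6 mice the log2 fold change was 0.99 ± 0.597 (edgeR's quasi-likelihood test, adjusted p = 0.309). With NCD replicate 1 left out, Pla2g4a rose 3.7-fold (1.89 ± 0.362 on the log2 scale, adjusted p = 0.0216 in the same test). Scaling by total counts and limma also called it in the 6 mice, at log2 fold changes of 1.83 and 1.48. Both divide by library totals, of which 58.6% were seminal vesicle counts in NCD replicate 1. With them the median log2 fold change of all genes was 0.45 and 0.37. In the 6 mice DESeq2 did not call Pla2g4a (adjusted p = 0.241). Nor did edgeR with median-of-ratios scaling (adjusted p = 0.307) or with seminal vesicle genes removed (adjusted p = 0.296).

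Pla2g4c, a smaller relative of Pla2g4a that lacks its calcium-binding domain, was at 1.19, 0.953 and 0.633 scaled CPM on NCD and 0.867, 1.08 and 1.2 on HFD. The diets overlapped. Its log2 fold change of 0.18 had a 95% interval from -0.73 to 1.1 (edgeR's quasi-likelihood test, adjusted p = 0.767), and its counts ran from 34 to 90 per library.

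Pla2g6 and Pla2g12a had their highest scaled CPM in NCD replicate 3. Pla2g6 encodes the calcium-independent phospholipase A2 beta, which takes part in membrane remodelling and acts in mitochondria. Its level was 32.6, 46.7 and 57.7 on NCD and 33.5, 27.8 and 23.8 on HFD. HFD replicate 1 just exceeded NCD replicate 1, and the diets were otherwise apart. The log2 fold change was -0.69 ± 0.251 (edgeR's quasi-likelihood test, adjusted p = 0.135), and without NCD replicate 1 Pla2g6 fell 1.82-fold (-0.87 ± 0.179, adjusted p = 0.0263). Limma on the same 5 mice did not call it (-0.61, adjusted p = 0.0566).

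For Pla2g12a the level was 49.5, 53.7 and 83.1 scaled CPM on NCD and 43, 32.3 and 26.9 on HFD. No HFD mouse reached the lowest NCD mouse. The difference of -0.87 ± 0.275 on the log2 scale did not pass in the 6 mice (edgeR's quasi-likelihood test, adjusted p = 0.102). It passed narrowly without NCD replicate 1, 1.99-fold lower with an adjusted p of 0.0484 by edgeR, and 4 of 7 other settings for these 5 mice gave an adjusted p over the threshold, up to 0.0921. Fewer cells of a type and less RNA per cell cannot be told apart in a bulk sample, so the adipocyte markers are given beside these genes. The summed level of 10 adipocyte markers was 5631, 21143 and 28971 scaled CPM on NCD and 15799, 16428 and 12459 on HFD. Of these 10, none passed in the 6 mice by edgeR, with 2 at an unadjusted p under 0.05, 2 called lower by DESeq2 and none by limma. Without NCD replicate 1, edgeR called 5 lower, Plin1 among them. Per 100 counts of the adipocyte markers, Pla2g12a had 0.879, 0.254 and 0.287 counts on NCD and 0.272, 0.196 and 0.216 on HFD. The same ratio of Pla2g6 was 0.579, 0.221 and 0.199 on NCD and 0.212, 0.17 and 0.191 on HFD. For both genes these ratios overlapped between the diets. Per 100 counts of Adipoq alone they did not, and every HFD mouse lay lower. Pla2g12a then had 9.31, 3.16 and 3.08 counts on NCD and 2.63, 1.95 and 2.36 on HFD, and Pla2g6 had 6.13, 2.74 and 2.14 on NCD and 2.05, 1.68 and 2.09 on HFD.

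Pla2g2d encodes a secreted enzyme known from dendritic cells and macrophages of lymphoid tissue, where it has been tied to the resolution of inflammation. It was at 3.78, 8.93 and 6.89 scaled CPM on NCD and at 2.32, 1.41 and 2.02 on HFD. Every HFD mouse lay below every NCD mouse. The log2 fold change of -1.77 ± 0.403 fell just short of the threshold in the 6 mice (edgeR's quasi-likelihood test, adjusted p = 0.0528). The gene fell 4.08-fold without NCD replicate 1 (log2 fold change -2.03 ± 0.289, adjusted p = 0.011). Before scaling, its counts were 124, 534 and 370 on NCD and 134, 118 and 127 on HFD.

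Pla2g5 encodes a secreted enzyme described in adipocytes of obese mice and in macrophages. It had 7, 20 and 8 counts on NCD and 14, 97 and 113 on HFD, which gave 0.213, 0.335 and 0.149 scaled CPM on NCD and 0.243, 1.16 and 1.8 on HFD. HFD replicates 2 and 3 were above all NCD mice, and HFD replicate 1 lay within the NCD range. The log2 fold change of 2.19 had a 95% interval from 0.26 to 4.11 and did not pass after adjustment (edgeR's quasi-likelihood test, adjusted p = 0.133, or 0.162 without NCD replicate 1). HFD replicate 1 also differed from the other HFD mice in macrophage genes. Spp1, the secreted phosphoprotein osteopontin, was at 57.1 scaled CPM there against 695 and 1171, and Gpnmb, a lysosomal glycoprotein of lipid-laden macrophages, at 1331 against 215 and 234.

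Pla2g2d and Pla2g5 are neighbours in the cluster of secreted phospholipase A2 genes on chromosome 4, at chr4:138775735-138782052 and chr4:138799247-138863562 in GRCm38.p6. Next among the counted genes is Pla2g2e at chr4:138877911-138882817. Pla2g2a, at chr4:138831857-138835189 within the span of Pla2g5, and Pla2g2f of the same cluster were not among the genes counted. The point estimates of Pla2g2d and Pla2g5 had opposite signs. Pla2g2e, another secreted enzyme described in adipocytes, had 3, 199 and 203 counts on NCD and 82, 88 and 80 on HFD. It fell without NCD replicate 1, with a log2 fold change of -1.49 ± 0.287 (edgeR's quasi-likelihood test, adjusted p = 0.0217), and with all 6 mice the estimate was -0.95 ± 1.04 with an adjusted p of 0.568. Pla2g2c, at the other end of the cluster, had no count in any mouse.

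**Figure D4:**
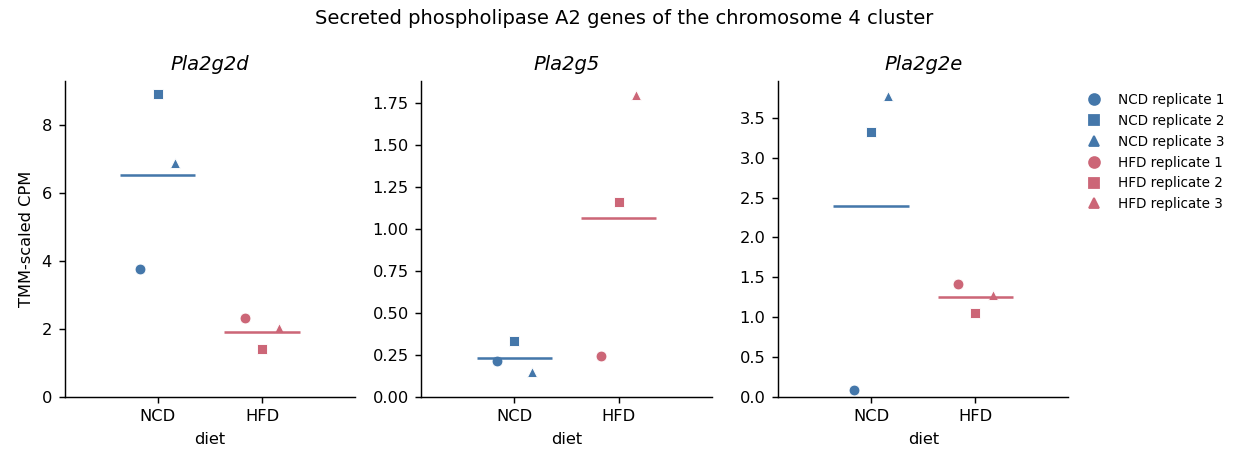
Scaled CPM (vertical axes, linear from 0, 1 scale per gene) of 3 secreted phospholipase A2 genes of the chromosome 4 cluster by diet, with 1 symbol per replicate and a bar at the mean of each diet. Pla2g2d is at most 2.32 in the HFD mice, Pla2g5 exceeds 1 in HFD replicates 2 and 3, and Pla2g2e is near 0 in NCD replicate 1.

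The upstream bases of Pla2g2d and Pla2g5 are printed because their point estimates had opposite signs, though that of Pla2g5 did not pass after adjustment in either fit. Pla2g2d is on the plus strand (chr4:138775485-138775734) and Pla2g5, at the first of its 2 annotated starts, on the minus strand (chr4:138863563-138863719, leaving out the 93 bases next to the start, which lie in the annotated span of the gene). Both are from RefSeq, GRCm38.p6, in the 5′ to 3′ direction of the gene, with a GAGGAA match in capitals.
Pla2g2d: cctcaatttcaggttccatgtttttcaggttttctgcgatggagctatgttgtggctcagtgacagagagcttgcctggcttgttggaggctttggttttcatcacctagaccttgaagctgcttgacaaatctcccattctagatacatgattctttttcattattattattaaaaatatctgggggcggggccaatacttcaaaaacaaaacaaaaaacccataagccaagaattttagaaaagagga
Pla2g5: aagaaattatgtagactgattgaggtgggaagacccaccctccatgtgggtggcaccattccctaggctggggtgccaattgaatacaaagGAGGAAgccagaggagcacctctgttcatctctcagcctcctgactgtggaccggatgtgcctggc
The match in Pla2g5 began 159 bases before the annotated start. None of the 4 motifs was found in the window of Pla2g2d.

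Macrophage genes moved with the diet as well. Of 10 macrophage markers, 5 rose in the 6 mice and 9 without NCD replicate 1, none fell, and their median log2 fold change was 2.55 (2.27 without NCD replicate 1). Their summed level was 396, 959 and 876 scaled CPM on NCD and 3619, 2475 and 3163 on HFD. Adgre1, which encodes F4/80, rose by 2.86 ± 0.425 on the log2 scale (edgeR's quasi-likelihood test, adjusted p = 0.0238), and Cd68, a lysosomal glycoprotein of macrophages, by 3.17 ± 0.456 (adjusted p = 0.0231). Each member was also set against these markers within a mouse, as counts per 100 marker counts and with no test. In this ratio Pla2g7 was the single member higher in all HFD mice, Pla2g15, Pla2g2d, Pla2g12a, Pla2g6 and Pla2g4c were lower in all of them, and Pla2g4a and Pla2g5 overlapped. Because the marker sum itself rose, a gene with little change of its own is also lower in this ratio. Pla2g4c, with a log2 fold change of 0.18, is such a gene. The share of all genes that are lower in this ratio was not computed. The ratios of Pla2g12a, Pla2g6 and Pla2g4c were 7.96-fold, 6.96-fold and 3.79-fold lower on HFD (2.49-fold for Pla2g4c without NCD replicate 1).

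Pla2g7 gave 2.55, 1.63 and 1.5 counts per 100 counts of the 10 markers on NCD and 3.26, 4.76 and 5.88 on HFD, higher in all HFD mice by 1.29 on the log2 scale. Against Csf1r, the receptor of macrophage colony-stimulating factor, the diets also stood apart (log2 difference 1.77). Against Adgre1 and Cd68 singly they overlapped, with log2 differences of 0.56 and 0.21. For Cd68 the values were 49.9, 29.7 and 36 on NCD and 25.3, 49.5 and 66.7 on HFD. The comparison of Pla2g7 with macrophage content thus depended on the marker taken, and the part of macrophage number in its rise was not tested.

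Relative to the summed macrophage markers, Pla2g15 was lower on HFD. Its ratio was 6.5, 7.35 and 6.62 per 100 marker counts on NCD and 3.36, 4.19 and 4.59 on HFD, lower in all HFD mice. Against Csf1r alone the diets overlapped, at 41.8 to 54.3 on NCD and 28.7 to 52.2 on HFD. Pla2g2d had 0.955, 0.931 and 0.786 counts per 100 marker counts on NCD and 0.0642, 0.0572 and 0.064 on HFD. The values were close to each other within each diet and 14.4-fold lower on HFD, and NCD replicate 1 was like the other NCD mice in this ratio. Against Adgre1, Cd68 and Csf1r singly the ratio of Pla2g2d was 23.8-fold, 30.3-fold and 10.3-fold lower on HFD, again without overlap. These 3 markers themselves had log2 fold changes of 2.86, 3.17 and 1.62, while Cd163, also among the 10, had -0.07.

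**Figure D5:**
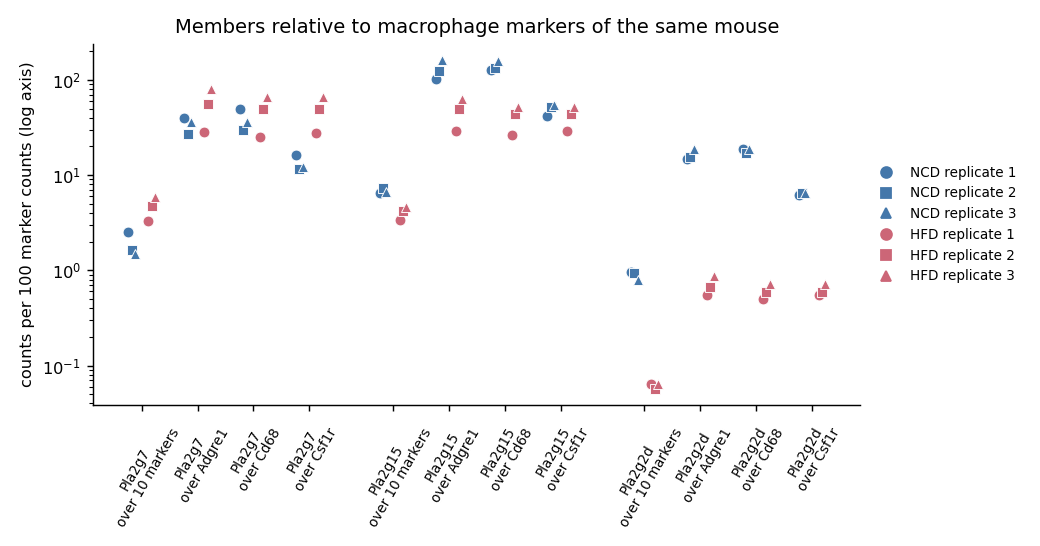
Counts of Pla2g7, Pla2g15 and Pla2g2d per 100 counts of macrophage markers in the same mouse (vertical axis, log scale), for the sum of 10 markers and for Adgre1, Cd68 and Csf1r singly. Pla2g2d is lower on HFD for each denominator, while Pla2g7 overlaps between the diets for Adgre1 and Cd68.

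Markers of dendritic cells, T cells and B cells were set beside Pla2g2d as well. The 6 dendritic cell markers summed to 20.1, 26.6 and 24.7 scaled CPM on NCD and 21.8, 29.1 and 30.4 on HFD, which overlapped. None of the 6 passed edgeR's test with or without NCD replicate 1, 3 had an unadjusted p under 0.05 in each fit, and DESeq2 called 3 in the 6 mice, 2 higher and 1 lower. Limma called none in the 6 mice and 1 lower without NCD replicate 1. The lower one was Itgae, an integrin of a dendritic cell subset and of some T cells, named after its values were seen, at 7.73, 7.68 and 5.92 scaled CPM on NCD and 0.572, 2.52 and 2.12 on HFD. Itgae had a log2 fold change of -2.03 ± 0.556 (edgeR's quasi-likelihood test, adjusted p = 0.0765), and Flt3, a receptor of dendritic cells and their precursors, had 1.13 ± 0.34 (adjusted p = 0.091). No T cell marker (of 7) and no B cell marker (of 6) passed in either fit by edgeR, DESeq2 or limma, and 2 T cell markers had an unadjusted p under 0.05 by limma and none by the other tools. Cd3e, a chain of the T cell receptor complex, had a log2 fold change of -0.35 ± 0.487, and the median of the 7 T cell markers was -0.01 (0.31 without NCD replicate 1). Pla2g2d per 100 dendritic marker counts was 18.8, 33.6 and 27.9 on NCD and 10.7, 4.86 and 6.66 on HFD, without overlap. Of 8 genes of lipid-associated macrophages, 4 rose in the 6 mice and 5 without NCD replicate 1. Trem2, a lipid-sensing receptor of these cells, rose by 3.68 ± 0.541 on the log2 scale (edgeR's quasi-likelihood test, adjusted p = 0.0235). The estimates of Cd9, a tetraspanin, and Lpl, the lipoprotein lipase that adipocytes also make, were -0.56 and -1.48 without passing by edgeR. With NCD replicate 1 left out they were 1.17 and -1.93, and DESeq2 then called Lpl lower, 1 of the 8. Per 100 counts of these 8 genes, Lpl included, Pla2g2d had 0.114, 0.0619 and 0.0403 counts on NCD. On HFD it had 0.021, 0.0339 and 0.0429, so that the diets overlapped.

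Of 22 further genes with phospholipase A2 or PAF hydrolase activity, 17 were in the table and 11 could be tested. Of these 11, 1 was lower on HFD and none higher in the 6 mice (edgeR's quasi-likelihood test), while 4 had an unadjusted p under 0.05. DESeq2, which tested 16 of the genes, called 4 lower, and limma none. The gene called by edgeR was Pnpla3, a lipid droplet hydrolase of the patatin family, at 268, 918 and 1091 scaled CPM on NCD and 73.9, 83.3 and 34.4 on HFD, with a log2 fold change of -3.57 ± 0.647 (adjusted p = 0.0335). Without NCD replicate 1, 5 of 12 tested were lower and none higher by edgeR. The 5 were Pnpla3, Prdx6, a peroxiredoxin with phospholipase A2 activity (log2 fold change -1.06), Abhd3, which acts on phospholipids with medium-chain fatty acids (-1.69), Pnpla8, the calcium-independent phospholipase A2 gamma (-0.74), and Pla2g2e. The intracellular PAF hydrolase genes Pafah1b1, Pafah1b2, Pafah1b3 and Pafah2 had log2 fold changes of -0.25, -0.01, 0.42 and -0.13, and none passed in either fit by edgeR, with 1 at an unadjusted p under 0.05 without NCD replicate 1. That gene, Pafah1b3, had a log2 fold change of 1.10 without NCD replicate 1 (adjusted p = 0.0758, edgeR), and DESeq2 and limma called it higher there.

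Downstream of the family, 13 genes for the breakdown of lysophospholipids were tested. Tmem86a, the lysoplasmalogenase the study is about, was at 8.8, 15.7 and 18.5 scaled CPM on NCD and 51.3, 48.7 and 55.7 on HFD, and rose by 1.86 ± 0.289 on the log2 scale (edgeR's quasi-likelihood test, adjusted p = 0.0253). Tmem86b, the other lysoplasmalogenase, had a log2 fold change of 0.12 ± 0.314. Pnpla7, a lysophospholipase named after its values were seen, was also higher (0.88 ± 0.177, adjusted p = 0.0417). Gde1, a glycerophosphodiester phosphodiesterase, was lower (-1.34 ± 0.185, adjusted p = 0.0223). Without NCD replicate 1, Enpp2, which encodes autotaxin, the maker of lysophosphatidic acid, fell by 1.90 on the log2 scale (adjusted p = 0.00656, edgeR), and Abhd6, a monoacylglycerol and lysophospholipid hydrolase, fell by 1.17 (adjusted p = 0.0138).

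Of 6 receptors and regulators, edgeR called 1 higher in the 6 mice and none lower, while 5 had an unadjusted p under 0.05. DESeq2 called 4 higher and limma 1. The gene called by edgeR was Ptafr. It encodes the receptor of PAF, the lipid that PLA2G7 inactivates. The level was 11.5, 29.5 and 18.2 scaled CPM on NCD and 169, 99.1 and 120 on HFD, with every HFD mouse above every NCD mouse. The log2 fold change was 2.71 ± 0.405 (edgeR's quasi-likelihood test, adjusted p = 0.0239), and 2.45 ± 0.328 without NCD replicate 1 (adjusted p = 0.00959). Per 100 Adgre1 counts Ptafr had 45.2, 51.6 and 50.3 counts on NCD and 40.4, 47.1 and 51.4 on HFD, which overlapped. Per 100 counts of the 10 macrophage markers it had 2.91, 3.08 and 2.08 on NCD and 4.67, 4 and 3.79 on HFD, which did not. Against Csf1r it was also higher in all HFD mice, at 18.7, 21.7 and 17 on NCD and 39.9, 41.9 and 43 on HFD. Against Cd68 it was lower in all of them, at 57, 56.2 and 49.9 on NCD and 36.3, 41.7 and 42.9 on HFD. The direction thus depended on the marker taken. S100a10, a partner of annexin A2 reported to bind the cytosolic phospholipase A2, was higher without NCD replicate 1 (1.02 ± 0.13, adjusted p = 0.00893).

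Across the 6 mice the members followed several patterns. The genes whose log2(scaled CPM + 1) was most like that of Pla2g7, among 13571 tested genes with a mean scaled CPM of at least 1, were Etv5, Aprt and Bcl2a1d (Pearson r of 1.000, 0.999 and 0.998). For Pla2g15 they were Arhgef2, Ccdc102a and Cela1 (0.998, 0.997 and 0.997), and for Pla2g5, where HFD replicate 1 is low, Treml2, Acod1 and Cxcr2 (0.996, 0.994 and 0.994). For Pla2g2d they were Psmd12, Clptm1 and Nfrkb (0.994, 0.991 and 0.985), for Pla2g4a Dapp1, Slc41a1 and Dusp5 (0.994, 0.992 and 0.991), and for Pla2g4c Slc52a3, Zswim8 and Taf1c (0.988, 0.984 and 0.978). Pla2g6 was most like Mtmr2, Fnta and Scrn3 (0.998, 0.997 and 0.997), and Pla2g12a most like Ppm1b, Cdip1 and Sec31b (0.993, 0.991 and 0.990). These coefficients describe 6 libraries that share the diet contrast and the library scaling. Between members, Pla2g6 and Pla2g12a had an r of 0.96, Pla2g7 and Pla2g15 of 0.89, and Pla2g6 and Pla2g4a of -0.97.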

How the data were processed

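Gonadal fat RNA of 6 mice was sequenced by the authors, who deposited read counts per gene (NCBI gene identifiers, 1 column per mouse) without normalization. The submitters' processing notes name bcl2fastq 2.20.0, Trimmomatic, HISAT2 2.1.0, StringTie 1.3.4d and DESeq2, with builds mm10 and GRCm38. The labels name a stranded mRNA kit, and no source used here gives the strand setting of the counting. Of 19790 identifiers, 19742 matched a symbol (RefSeq, GRCm38.p6). Exon lengths of GENCODE vM21 matched 17793 genes.

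Genes were kept by filterByExpr at a minimum count of 10 and a total of 15. Libraries were scaled by TMM, and the diets compared in edgeR 4.0.16 under R 4.3.3 (glmQLFit, glmQLFTest), with Benjamini-Hochberg adjustment over all 15241 genes kept (15510 without NCD replicate 1) and a threshold of 0.05. Standard errors were derived from the fold change and its F statistic. FPKM was computed here from counts, library totals and exon lengths. The common coefficient of variation between mice was 0.424, and 0.288 without NCD replicate 1, so that the spread between mice limits precision more than counting does. Every pair of replicates differed by far more than sampling noise. The procedure was tested on simulated data.

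The members and lists were chosen with earlier results of these data known. Named were the 8 members, Tmem86a, up to 4 genes of each list with the smallest adjusted p among those past the threshold with or without NCD replicate 1, a set of defining cell markers, and the 3 genes most correlated with each member. Tmem86b, the intracellular PAF hydrolase genes, Pla2g2c, Pla2g4b, Pla2g4f, Pla2g12b, Itgae, Cd163, Cd9, Lpl and Pnpla7 were named outside this rule, after their values were seen. Alternatives were no filter, median-of-ratios scaling, total counts, removal of seminal vesicle genes, DESeq2 1.42.0, limma 3.58.1 on log2(FPKM + 1), the replicate number as a block and each mouse left out. Repeating them on 5 mice, and leaving out mice for the shares, was decided after seeing the data. Figures were drawn with matplotlib 3.10.9.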

Additional observations from a re-analysis of the deposited data

How the results depend on the processing

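With all 6 mice, the number of members called was 1 by edgeR's quasi-likelihood test and 2 with total counts (Pla2g7 and Pla2g4a), 2 with limma (the same pair) and 4 with DESeq2 (Pla2g7, Pla2g15, Pla2g2d and Pla2g12a). Leaving out a mouse gave 0 to 6, with 0 for each mouse but NCD replicate 1. In the fits with 0, between 2 and 6 members had an unadjusted p under 0.05, beside 2988 to 4345 of all genes. Over all genes, edgeR called 1139 of 15241 (850 higher, 289 lower), and 959 of 15241 with total counts (748 and 211). DESeq2 called 3853 of 19056 (2100 and 1753), of which 2276 had no adjusted p, so its 4 members stand beside a larger share of all genes. Limma called 931 of 14527 (874 and 57). The number was 2 to 3234 when a mouse was left out. Without NCD replicate 1, edgeR called 3234 of 15510 genes (1665 higher, 1569 lower), and 3498 of 15510 with total counts (2544 higher, 954 lower). DESeq2 then called 5118 of 18882 and limma 3036 of 14744 (2241 and 795), and members called ranged from 4 to 6. Total counts moved the median log2 fold change of all genes to 0.45, and limma to 0.37. The causes were not tested. The log2 fold change of Pla2g7 lay between 3.20 and 3.89 in all settings. That of Pla2g4c turned to -0.01 without NCD replicate 3 and was 0.42 without NCD replicate 1. With coding lengths the share of Pla2g7 became 5.44% on NCD and 36.9% on HFD, from means of 7.64 and 44.4%. Against Adgre1, Cd68 and Csf1r singly, the log2 difference of Pla2g7 was 0.56, 0.21 and 1.77, from 1.29 over 10 markers.

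With the replicate number as a block, 0 members and 12 genes were called (3 members and 3571 genes at an unadjusted p under 0.05), and Pla2g7 had a log2 fold change of 3.43 and an adjusted p of 0.0634. Deviations from the diet means correlated at -0.05, -0.022 and -0.019 for mice with the same number. For mice with different numbers they correlated at -0.062 to 0.066. With 3 mice per diet these values cannot decide whether the numbers pair the mice. On 5 mice the block gave 3100 genes and 5 members, without Pla2g15 (adjusted p = 0.0586, edgeR).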

Other observations

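Pla2g12b, which encodes a secreted family member without catalytic activity, was dropped by the filter on low counts for edgeR's test, while DESeq2 called it lower on HFD in the 6 mice but not without NCD replicate 1. It had 304 and 45 counts in NCD replicates 1 and 2 and none in NCD replicate 3 or in any HFD mouse. The seminal vesicle genes had 38827175, 6577566 and 1155319 counts in NCD replicates 1, 2 and 3. Of the other cytosolic family genes, Pla2g4b had 28 counts in HFD replicate 1 and 2 in HFD replicate 2, and Pla2g4f had 34 counts in HFD replicate 2 and 14 in HFD replicate 3. Of 5 mesothelial markers, edgeR called 1 higher in the 6 mice, with 2 at an unadjusted p under 0.05, while DESeq2 called 2 higher and limma 1. The marker called by edgeR was Msln, the mesothelial surface protein mesothelin. It was at 17.8, 18.8 and 14.8 scaled CPM on NCD and 67.2, 124 and 47.5 on HFD (log2 fold change 2.22 ± 0.375, adjusted p = 0.0289, edgeR's quasi-likelihood test).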
